A study of Danio rerio with 12 samples.

Results

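The cytosolic ribosomal protein genes of the zebrafish caudal fin were followed from the uninjured fin to the regenerate. They were chosen by name alone: a gene of the mRNA table belonged to the set if its Ensembl name was rpl or rps followed by a digit, or rplp0, rplp1, rplp2 or rpsa, and kinases of ribosomal protein S6 and rps19bp1 were left out. This gave 72 of the 16951 genes measured, 40 of the large subunit and 32 of the small subunit. Adult Ekkwill zebrafish carrying no transgene or mutation named in the labels had part of the caudal fin cut off with a scalpel under MS222 anaesthesia. Tissue was taken from the regenerate at 4 days post-amputation (dpa) and from the uninjured fin at 0 dpa, with 3 strand-specific polyA+ mRNA libraries for each day and 5 to 8 fins pooled in each library. The small RNA libraries of the same study do not measure these genes.

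The cytosolic ribosome translates nearly all of the mRNA of a cell. Its large subunit joins amino acids and its small subunit decodes the mRNA. Each is built on ribosomal RNA from a fixed set of proteins present in a single copy. The exceptions are the P-stalk proteins RPLP1 and RPLP2 of the large subunit, which sit there as dimers. The mRNAs of ribosomal proteins are among the most abundant in growing tissue. In vertebrates they start with a run of pyrimidines, by which the mTOR pathway controls their translation, so that their protein output can change without a change in mRNA level. By 4 dpa the zebrafish fin carries a blastema, the dividing tissue that rebuilds the missing part.

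Depth was 24557820, 17928712 and 23853467 reads per library at 4 dpa and 20839447, 25223147 and 23069544 at 0 dpa. Levels are given in CPM, read counts scaled to an adjusted library size, as deposited. They are not divided by transcript length, so the CPM of 1 gene cannot be set against that of another as numbers of transcripts. Fold changes are differences of log2(CPM + 1), 4 dpa minus 0 dpa, after a further small shift of each library, with a standard error (SE) and a Benjamini-Hochberg adjusted p over all 16951 genes from limma. A gene is called where that p is under 0.05. The markers of the tissue were present: the basal keratin krt5 had 22510, 21180 and 26800 CPM at 4 dpa and 38880, 40050 and 33520 CPM at 0 dpa. The actinotrichia gene and1, which codes for the fibrils of the growing fin edge, had 1193, 1112 and 1565 CPM at 4 dpa, against 1.74, 1.21 and 1.56 CPM at 0 dpa.

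The ribosomal protein mRNAs were lower in the regenerate, nearly all by a similar amount. Of the 72 genes, 68 were called lower at 4 dpa, 1 was called higher and 3 were not called. Over all genes, 31.2% were called lower and 31.0% higher. The median log2 fold change of the 72 genes was −0.64, that is 0.643 times the level at 0 dpa, against −0.0049 over all genes, and the quartiles of the set were −0.76 and −0.58. In 69 of the 72 genes all 3 libraries at 4 dpa were below all 3 at 0 dpa, as in 33.9% of all genes. Only RPL5 ENSDARG00000015862 was called with a fall of more than 1 on the log2 scale. The call depended in part on scaling: 62 genes were called lower and 2 higher, with a median of −0.36, after scaling to total reads, where the median of all genes was itself 0.24 and 3595 genes were called lower and 7518 higher. After quantile normalization, which gives each library the same set of values, 31 were called lower and 5 higher, with a median of −0.17. Of all 16951 genes, 5333 were then called lower and 5062 higher.

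**Figure D1:**
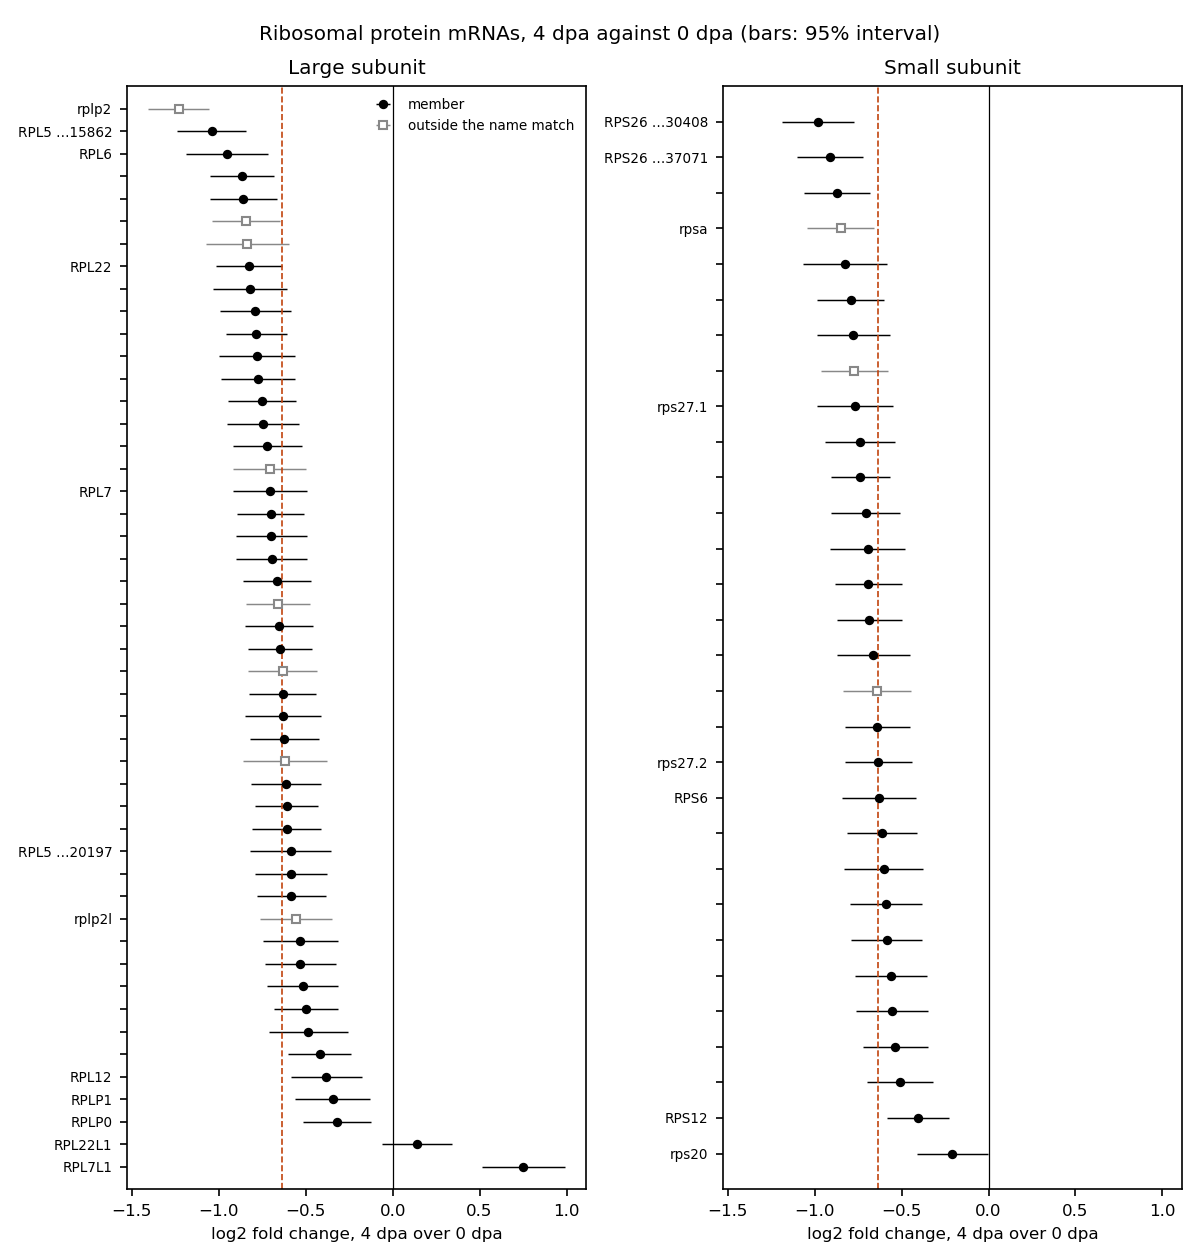
Log2 fold change, 4 dpa over 0 dpa, of each ribosomal protein gene of the large subunit (left) and the small subunit (right), with 95% intervals from limma. Filled circles are 67 of the 72 genes, with names for those described in the text other than RPS2, open squares 11 ribosomal protein genes outside the name match, and the dashed line is the median of the 72, −0.64. Nearly all genes lie close to that line, while RPL7L1 and RPL22L1 lie to the right of 0.

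Genes with many reads were more often lower than the average gene. The set is abundant: 67 of its genes had a mean level of at least 9 on the log2 scale. A group of 171 other genes of that level left out the set and 11 ribosomal protein genes that the name match missed. It still held RACK1, a ribosomal protein with a name of another kind. Of these 171 genes, 53.2% were called lower at 4 dpa, with a median log2 fold change of −0.37. In the main fit, the share of genes called lower in the ribosomal protein set, 94.4%, stood above both backgrounds. No test of that difference was made. Within the set, the fold change did not follow the level in a simple way. Over the 70 genes whose mean level was 5 or more, Pearson's r between the fold change and the mean level was −0.489 and Spearman's rho −0.0559. Without RPL7L1 and RPL22L1, r was 0.111 and rho 0.0287 over 68 genes. These values describe genes that share the same 6 libraries and are not independent.

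Ribosomal protein mRNAs took a smaller part of all reads in the regenerate. The 72 genes held 8.64%, 9.23% and 8.36% of all mRNA reads at 4 dpa, against 11.2%, 11.5% and 11.1% at 0 dpa. The means were 8.74 ± 0.442% at 4 dpa and 11.3 ± 0.226% at 0 dpa (SD, n = 3 each), a difference of −2.52 percentage points, with no overlap between days. Of the 100 genes with the most reads, 29 at 4 dpa and 32 at 0 dpa belonged to the set. No gene dominated it: the 10 genes with the most reads gave 24.83% of its reads at 4 dpa and 25.03% at 0 dpa. A share of reads is relative. In bulk tissue, fewer cells rich in these mRNAs, less of them per cell and more of other mRNAs cannot be told apart.

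**Figure D2:**
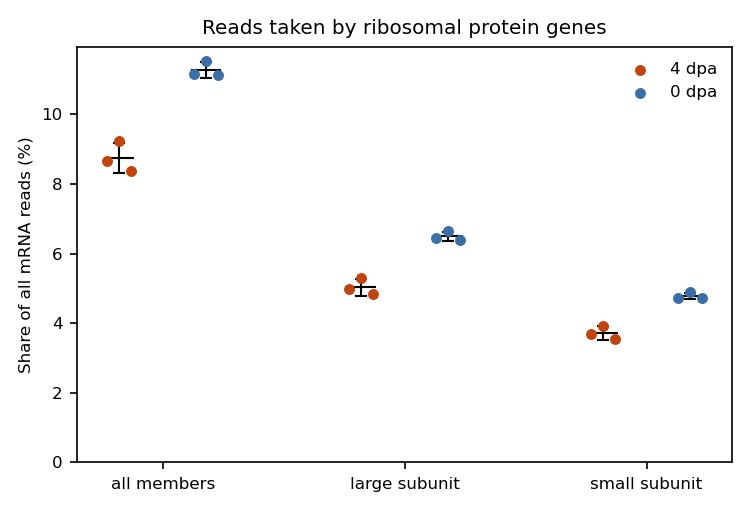
Share of all mRNA reads (%) taken by the 72 ribosomal protein genes, by the 40 of the large subunit and by the 32 of the small subunit, with 4 dpa left of 0 dpa in each pair. Points are libraries and bars the mean and SD of 3. All 3 libraries at 4 dpa lie below all 3 at 0 dpa in each pair.

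The subunits fell together, though less alike after quantile normalization. Large subunit genes numbered 38 called lower of 40, with a median log2 fold change of −0.64. Small subunit genes numbered 30 of 32, also with a median of −0.64, where 31.2% of all genes were called lower. On total reads the medians were −0.35 and −0.36. After quantile normalization 15 large subunit genes were lower and 4 higher, with a median of −0.11. In the small subunit 16 were then lower and 1 higher, with a median of −0.20. Of all 16951 genes, 5333 were lower and 5062 higher under that scaling. Large subunit genes held 4.97%, 5.30% and 4.83% of reads at 4 dpa, against 6.44%, 6.65% and 6.39% at 0 dpa. Small subunit genes held 3.68%, 3.93% and 3.53% of reads at 4 dpa, against 4.72%, 4.88% and 4.72% at 0 dpa. The ratio of large to small subunit reads was 1.35, 1.35 and 1.37 at 4 dpa, against 1.37, 1.36 and 1.35 at 0 dpa, and here the days overlapped. The genes of the large subunit were spread more widely, with an SD over genes of 0.297 log2 units against 0.155 for the small subunit. The large subunit held both genes with a positive fold change, RPL7L1 and RPL22L1. Over the 68 genes of both subunits without names ending in l or l1, which leaves out both, the SD was 0.156.

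The libraries of a day also differed from each other as a block of genes. Replicate 2 was above the mean of its day for 68 of the 72 genes at 4 dpa and for 71 at 0 dpa, by a median of 0.09 and 0.07 log2 units. The other 4 libraries were above the mean of their day for 5 to 16 of the genes. The genes thus tended to deviate in the same direction within a library, and 72 calls are not 72 independent observations. Replicate 2 was the library with the fewest reads at 4 dpa and the most at 0 dpa. Leaving out any single library left between 66 and 69 genes called lower.

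**Figure D3:**
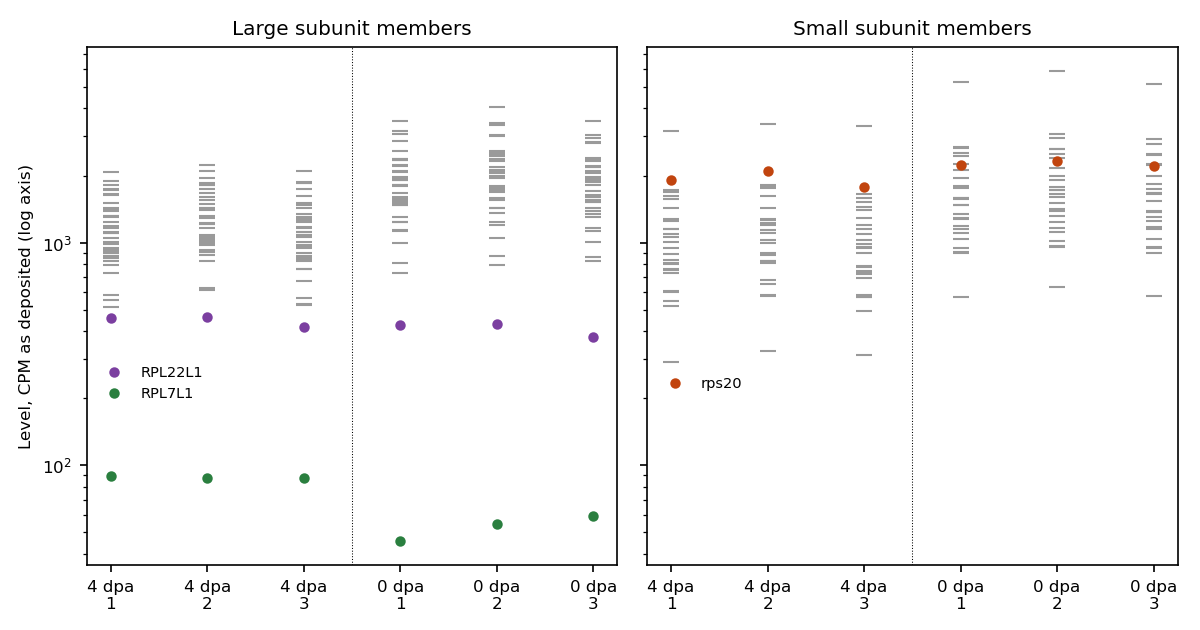
Level of 67 of the 72 genes in each library, in CPM as deposited on a log axis, for the large subunit (left) and the small subunit (right), with the 3 libraries at 4 dpa left of the 3 at 0 dpa. Dashes are genes and coloured points RPL7L1, RPL22L1 and rps20, which were not called lower. The band of dashes is lower at 4 dpa, whereas RPL7L1 is higher there, at 87.3 to 89.7 CPM against 45.5 to 59.1 CPM at 0 dpa.

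The largest falls were in genes of both subunits. RPL5 binds the 5S ribosomal RNA and, outside the ribosome, the p53 regulator MDM2. Its copy ENSDARG00000015862 had 1107, 1209 and 1113 CPM at 4 dpa, against 2239, 2552 and 2365 CPM at 0 dpa, which is −1.04 ± 0.09 on the log2 scale (± SE throughout, with the limma adjusted p = 2.7e-05). RPL6, also of the large subunit, had 1652, 1815 and 1468 CPM at 4 dpa, against 3173, 3433 and 3039 CPM at 0 dpa (log2 fold change −0.95 ± 0.10, limma adjusted p = 1.0e-04). In both genes the days lay far apart compared with the spread of their libraries.

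In the small subunit, both copies of RPS26 had large falls. RPS26 lines the exit of the mRNA channel. RPS26 ENSDARG00000030408 had 519.6, 584.2 and 490.8 CPM at 4 dpa and 1040, 1117 and 1033 CPM at 0 dpa (log2 fold change −0.98 ± 0.09, limma adjusted p = 4.3e-05). The other copy, RPS26 ENSDARG00000037071, had 290.8, 325.0 and 312.1 CPM at 4 dpa and 569.1, 629.8 and 573.9 CPM at 0 dpa (−0.91 ± 0.08, limma adjusted p = 4.2e-05). RPS26 is among the genes whose loss causes Diamond-Blackfan anaemia in humans, a disorder of red blood cell production.

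The smallest falls among called genes included proteins of the P-stalk, the arm of the large subunit that recruits elongation factors. RPLP0, the base of the stalk, had 1735, 1857 and 1852 CPM at 4 dpa, against 2384, 2329 and 2178 CPM at 0 dpa. Its log2 fold change was −0.32 ± 0.08 (limma adjusted p = 0.011). It was not called on total reads (−0.034, adjusted p = 0.72) and was called higher after quantile normalization (0.25, adjusted p = 0.035). RPLP1, which pairs with RPLP2 on RPLP0, had 1815, 2085 and 1733 CPM at 4 dpa, against 2368, 2503 and 2362 CPM at 0 dpa. Its log2 fold change was −0.35 ± 0.09 (limma adjusted p = 0.013). It was not called on total reads (−0.059, adjusted p = 0.57) or after quantile normalization (0.18, adjusted p = 0.055). Without 4 dpa replicate 1 neither gene was called, with limma adjusted p = 0.057 for RPLP0 and 0.056 for RPLP1.

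RPL12, which binds ribosomal RNA beside RPLP0 at the stalk base, had 1510, 1665 and 1499 CPM at 4 dpa, against 1929, 2190 and 2054 CPM at 0 dpa (log2 fold change −0.38 ± 0.09, limma adjusted p = 0.0057). It was not called on total reads (−0.095, adjusted p = 0.31) and was called higher after quantile normalization (0.18, adjusted p = 0.048). The gene of the remaining stalk protein, rplp2, fell further than any gene of the set. Its identifier carried no name in the naming table and was therefore outside the 72 genes. The gene was found through the study's annotation of genes selected on these libraries, so the size of its fall is no independent evidence on the stalk. It had 460.4, 499.6 and 463.4 CPM at 4 dpa, against 1129, 1155 and 1103 CPM at 0 dpa (−1.23 ± 0.08, limma adjusted p = 6.0e-06). Its relative rplp2l had 846.4, 952.0 and 843.3 CPM at 4 dpa, against 1358, 1353 and 1225 CPM at 0 dpa (−0.56 ± 0.09, limma adjusted p = 0.00087). For rplp2l the call was lost after quantile normalization (−0.086, adjusted p = 0.39).

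RPS12, a protein of the small subunit beak, had 1247, 1261 and 1197 CPM at 4 dpa, against 1585, 1718 and 1670 CPM at 0 dpa. Its log2 fold change was −0.41 ± 0.08 (limma adjusted p = 0.0022). It was not called on total reads (−0.12, adjusted p = 0.18) or after quantile normalization (0.18, adjusted p = 0.057). RPS6, the small subunit protein that the kinase S6K phosphorylates when mTOR is active, was near the middle of the set. It had 1427, 1616 and 1402 CPM at 4 dpa and 2244, 2498 and 2227 CPM at 0 dpa (−0.63 ± 0.09, limma adjusted p = 0.00057). The call was lost after quantile normalization (−0.052, adjusted p = 0.55). A further 50 genes called lower had log2 fold changes between −0.87 and −0.42, with SEs of 0.07 to 0.11 and limma adjusted p of at most 0.0029. Their mean levels were 553.4 to 3311 CPM at 4 dpa and 783.8 to 5438 CPM at 0 dpa. The gene with the most reads among them, chosen after its values were seen, was RPS2, with 3163, 3419 and 3351 CPM at 4 dpa and 5260, 5920 and 5133 CPM at 0 dpa.

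Of the 4 genes that were not called lower, 3 are described here. RPL7L1, a relative of RPL7 known in human cells from nucleolar precursors of the large subunit, was called higher. It had 89.7, 87.3 and 88.1 CPM at 4 dpa, against 45.5, 54.5 and 59.1 CPM at 0 dpa, or 0.75 ± 0.10 on the log2 scale (limma adjusted p = 0.00040), and it was called under every scaling tried. RPL22L1, a relative of RPL22, had 459.7, 461.0 and 417.5 CPM at 4 dpa and 426.4, 428.8 and 375.6 CPM at 0 dpa. The days overlapped (0.14 ± 0.09, limma adjusted p = 0.20), but the gene was called higher after scaling to total reads, with a log2 fold change of 0.43, and after quantile normalization, with 0.30.

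Protein S20 lies on the head of the small subunit. The gene rps20 had 1913, 2085 and 1785 CPM at 4 dpa, against 2229, 2314 and 2214 CPM at 0 dpa. All libraries at 4 dpa were below all at 0 dpa, but the log2 fold change of −0.21 ± 0.09 did not pass the threshold (limma adjusted p = 0.069). It was called lower by limma-voom on whole reads (adjusted p = 0.038), with the replicate number as a block (adjusted p = 0.049) and without 4 dpa replicate 2 (adjusted p = 0.031). Its direction turned to 0.08 after scaling to total reads and to 0.34, called higher, after quantile normalization.

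A further question was whether copies of a gene changed alike. The set held 7 pairs of genes with the same name or with names that differ only by a final number or l, and 5 of them are described here. For each pair the share of the pair's reads that came from 1 copy was taken within each library, which removes the scaling of the library. The log2 ratio of the copies was compared between days by a two-sided exact permutation test over 20 orders of the labels. With 3 libraries against 3 this test cannot give a p below 0.1. Reads from near-identical copies may have been split between them by the counting, so the shares of the RPL5, RPS26 and rps27 copies are uncertain.

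The relatives RPL7L1 and RPL22L1 gained on their partners. RPL7L1 gave 5.20%, 4.61% and 5.17% of the reads of RPL7L1 and RPL7 at 4 dpa, against 1.73%, 1.79% and 2.07% at 0 dpa. The log2 ratio of RPL7L1 to RPL7 was 1.46 higher at 4 dpa, at −4.24 ± 0.10, against −5.70 ± 0.14 at 0 dpa (SD, n = 3 each; exact p = 0.1, the smallest possible). RPL7 itself, which binds the large subunit RNA, had 1636, 1808 and 1617 CPM at 4 dpa, against 2580, 2997 and 2798 CPM at 0 dpa (log2 fold change −0.71 ± 0.09, limma adjusted p = 0.00028). After quantile normalization RPL7 was not called (−0.17, adjusted p = 0.074), while the shares of the pair's reads do not depend on scaling.

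RPL22L1 gave 45.3%, 43.0% and 44.0% of the reads of RPL22L1 and RPL22 at 4 dpa, against 30.02%, 29.1% and 27.3% at 0 dpa. The log2 ratio of RPL22L1 to RPL22 was 0.96 higher at 4 dpa, at −0.34 ± 0.07, against −1.31 ± 0.10 at 0 dpa (SD, n = 3 each; exact p = 0.1, the smallest possible). RPL22 had 554.5, 609.8 and 531.7 CPM at 4 dpa, against 993.8, 1045 and 1002 CPM at 0 dpa (log2 fold change −0.82 ± 0.08, limma adjusted p = 6.8e-05). How the change of the ratio divided between the genes depended on scaling: on total reads RPL22L1 was higher by 0.43 and RPL22 was at −0.54, both called. No library of 1 day overlapped those of the other in either pair.

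Copies with the same name differed in RPL5 and hardly in RPS26. RPL5 ENSDARG00000015862 gave 43.7%, 43.1% and 46.2% of the reads of both RPL5 copies at 4 dpa, against 51.7%, 51.9% and 52.9% at 0 dpa. The log2 ratio differed by −0.45, with −0.33 ± 0.09 at 4 dpa and 0.12 ± 0.04 at 0 dpa (SD, n = 3 each; exact p = 0.1, the smallest possible). The other copy, RPL5 ENSDARG00000020197, had 1427, 1596 and 1298 CPM at 4 dpa, against 2095, 2369 and 2103 CPM at 0 dpa. Its log2 fold change was −0.59 ± 0.10 (limma adjusted p = 0.0013), and it was not called after quantile normalization (0.014, adjusted p = 0.88). The copy with more RPL5 reads was thus ENSDARG00000015862 at 0 dpa and ENSDARG00000020197 at 4 dpa.

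RPS26 ENSDARG00000030408 gave 64.1%, 64.2% and 61.1% of the RPS26 reads at 4 dpa and 64.6%, 64.0% and 64.3% at 0 dpa, with overlap (difference of the log2 ratio −0.07, exact p = 0.4). The zinc-finger protein S27 of the small subunit has the copies rps27.1 and rps27.2. Of their reads rps27.1 gave 57.4%, 58.0% and 56.0% at 4 dpa, against 59.7%, 59.7% and 58.9% at 0 dpa. This is a difference of the log2 ratio of −0.13 with no overlap (exact p = 0.1, the smallest possible). Both copies were called lower, rps27.1 with a log2 fold change of −0.77 ± 0.10 (limma adjusted p = 0.00022) and rps27.2 with −0.64 ± 0.08 (limma adjusted p = 0.00029).

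**Figure D4:**
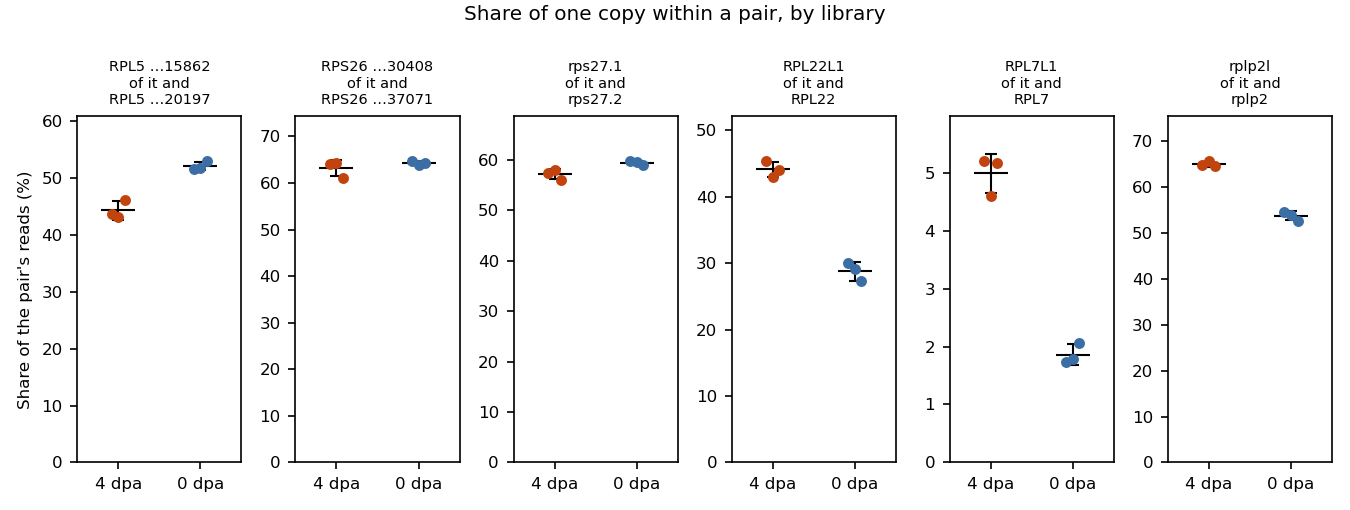
Share (%) of a pair's reads that came from the copy named first, in each library, with 4 dpa left of 0 dpa and bars for the mean and SD of 3 libraries. RPL22L1, RPL7L1 and rplp2l take a larger share at 4 dpa, RPL5 ENSDARG00000015862 and rps27.1 a smaller one, and the RPS26 copies overlap. The axes start at 0 and differ between pairs.

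The name match missed 11 ribosomal protein genes, whose identifiers had no name in the naming table, or a name the rule does not take. Of these, all but rplp2l, and so also rpsa, were found through the study's annotation of genes it had selected on these libraries. The sources read included its lists of genes downregulated in common with other species, and not its lists of upregulated genes. The direction of these genes is therefore no independent evidence, and none of the 11 was counted with the 72. All 11 were called lower, with log2 fold changes between −1.23 and −0.56. Among them rplp2l gave 64.8%, 65.6% and 64.5% of the reads of rplp2l and rplp2 at 4 dpa, against 54.6%, 54.0% and 52.6% at 0 dpa. The log2 ratio was 0.67 higher at 4 dpa (exact p = 0.1, the smallest possible). The gene rpsa, a small subunit protein also known as a laminin receptor, had 1923, 2118 and 1937 CPM at 4 dpa, against 3632, 3704 and 3582 CPM at 0 dpa (log2 fold change −0.85 ± 0.08, limma adjusted p = 6.3e-05). With these genes, 79 of 83 were called lower. The 83 genes held 9.95%, 10.6% and 9.65% of reads at 4 dpa, against 13.0%, 13.4% and 12.9% at 0 dpa. Both the count and the share carry the selection of the added genes.

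Some ribosomal proteins have names of another kind. RACK1, a scaffold on the small subunit, had 1487, 1567 and 1523 CPM at 4 dpa, against 2212, 2326 and 2180 CPM at 0 dpa (−0.53 ± 0.08, limma adjusted p = 0.00055). RACK1 was not called after quantile normalization (0.064, adjusted p = 0.46). The gene faub, named for a fusion of a ubiquitin-like protein and a small subunit protein, had 31.5, 29.5 and 26.8 CPM at 4 dpa and 24.9, 24.4 and 28.1 CPM at 0 dpa, with overlap (0.19 ± 0.10, limma adjusted p = 0.13). It was called higher after scaling to total reads, with 0.47.

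Mitochondrial ribosomal proteins, which belong to a separate ribosome inside mitochondria, did not follow the cytosolic set. Of 64 such genes, 25 were called higher, 2 lower and 37 were not called, with a median log2 fold change of 0.25. That is 39.1% higher and 3.12% lower, against 31.0% and 31.2% of all genes. After scaling to total reads 56 were called higher and none lower, and after quantile normalization 18 were higher and 3 lower. Over all 16951 genes, 7518 were called higher and 3595 lower on total reads, and 5062 and 5333 after quantile normalization. These counts are the background for the lists and markers that follow. MRPL23 had 40.1, 41.5 and 38.1 CPM at 4 dpa, against 31.0, 30.9 and 29.3 CPM at 0 dpa (0.40 ± 0.08, limma adjusted p = 0.0036). MRPL12 had 52.4, 50.1 and 49.5 CPM at 4 dpa, against 31.9, 38.7 and 44.6 CPM at 0 dpa (0.42 ± 0.12, limma adjusted p = 0.016, and 0.058 without 4 dpa replicate 1). Together these genes held 0.164%, 0.163% and 0.153% of reads at 4 dpa, against 0.108%, 0.107% and 0.118% at 0 dpa.

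Factors that assemble the cytosolic ribosome were more often higher than lower. Of 69 ribosome biogenesis genes, 37 were called higher, 9 lower and 23 were not called, with a median log2 fold change of 0.35. That is 53.6% higher and 13.0% lower, against 31.0% and 31.2% of all genes. After scaling to total reads 51 were higher and 6 lower, where 7518 of all 16951 genes were higher. DKC1, the pseudouridine synthase of small nucleolar particles, had 179.6, 149.0 and 169.8 CPM at 4 dpa, against 58.5, 68.4 and 81.8 CPM at 0 dpa (1.27 ± 0.13, limma adjusted p = 7.9e-05). The nucleolar chaperone npm1a had 380.4, 327.9 and 371.6 CPM at 4 dpa, against 149.7, 169.2 and 200.1 CPM at 0 dpa (1.08 ± 0.12, limma adjusted p = 0.00011). Both were higher in all libraries at 4 dpa than in any at 0 dpa.

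The list also held the opposite. RSL24D1, a placeholder for protein L24 in large subunit precursors, had 218.7, 260.0 and 199.1 CPM at 4 dpa, against 933.1, 1032 and 868.7 CPM at 0 dpa, or −2.05 ± 0.11 on the log2 scale (limma adjusted p = 3.6e-06). NSA2, another large subunit assembly factor, had 233.7, 271.5 and 209.4 CPM at 4 dpa, against 778.8, 815.7 and 632.3 CPM at 0 dpa (−1.62 ± 0.13, limma adjusted p = 2.1e-05). Both fell further than any gene of the ribosomal protein set. Of 12 genes of RNA polymerase I and its factors, which transcribe ribosomal RNA, 7 were called higher and none lower, with a median of 0.36. The share called higher was 58.3%, against 31.0% of all genes. The gene for the shared polymerase subunit POLR2L had 44.9, 49.0 and 40.2 CPM at 4 dpa, against 25.4, 27.5 and 31.5 CPM at 0 dpa (0.67 ± 0.11, limma adjusted p = 0.0011).

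The translation machinery around the ribosome was divided. Of 14 elongation factors and other abundant translation-associated genes, 11 were called lower and 3 higher, with a median of −0.56. The shares were 78.6% lower and 21.4% higher, against 31.2% and 31.0% of all genes. On total reads 8 were lower and 3 higher, with a median of −0.28, and after quantile normalization 7 were lower and 3 higher, with a median of −0.18. The nascent-chain proteins BTF3 and naca, which meet the new protein at the ribosome exit, fell most among those of mean level 5 or more. BTF3 had 595.4, 674.9 and 621.5 CPM at 4 dpa, against 1541, 1749 and 1523 CPM at 0 dpa (−1.33 ± 0.09, limma adjusted p = 1.0e-05). The gene naca had 979.4, 1130 and 961.9 CPM at 4 dpa, against 2015, 2354 and 2108 CPM at 0 dpa (−1.06 ± 0.10, limma adjusted p = 4.9e-05). EIF5A2, a form of the factor that helps ribosomes through stalling sequences, rose, with 1014, 947.6 and 951.4 CPM at 4 dpa, against 405.8, 424.4 and 457.2 CPM at 0 dpa (1.196 ± 0.08, limma adjusted p = 9.4e-06). The polyA-binding protein gene pabpc1b rose as well (0.98 ± 0.14, limma adjusted p = 0.00041).

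Of 43 initiation factor genes, 19 were called higher and 13 lower, with a median of 0.23. That is 44.2% higher and 30.2% lower, against 31.0% and 31.2% of all genes. After scaling to total reads 26 were higher and 10 lower, where 7518 of all 16951 genes were higher. The RNA helicase genes eif4a1a and EIF4A2, which unwind the start of the mRNA, went in opposite directions. The gene eif4a1a had 545.5, 437.2 and 598.9 CPM at 4 dpa, against 143.9, 212.3 and 239.3 CPM at 0 dpa (1.44 ± 0.19, limma adjusted p = 0.00031). EIF4A2 had 46.8, 46.3 and 45.8 CPM at 4 dpa, against 103.6, 104.5 and 118.7 CPM at 0 dpa (−1.20 ± 0.09, limma adjusted p = 1.2e-05). EIF4G2 ENSDARG00000020377, a scaffold of initiation, rose (1.38 ± 0.09, limma adjusted p = 8.7e-06), and EIF3M, a subunit of the factor that binds the small subunit, fell (−0.93 ± 0.09, limma adjusted p = 7.6e-05).

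Cytosolic tRNA synthetases, which load amino acids onto tRNA, were mostly higher. Of 17 genes, 14 were called higher, 1 lower and 2 were not called, with a median of 0.69. The shares were 82.4% higher and 5.88% lower, against 31.0% and 31.2% of all genes. CARS1, for cysteine, had 90.0, 77.1 and 84.1 CPM at 4 dpa, against 36.4, 34.1 and 42.4 CPM at 0 dpa (1.16 ± 0.11, limma adjusted p = 5.0e-05), and NARS1, for asparagine, rose by 0.86 ± 0.11 (limma adjusted p = 0.00019).

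Genes of the mTOR pathway and other regulators of ribosomal protein mRNA showed no common direction. Of 27 genes, 6 were called higher and 8 lower, with a median of −0.16. That is 22.2% higher and 29.6% lower, against 31.0% and 31.2% of all genes. The median turned to 0.12 after scaling to total reads, with 10 higher and 6 lower. The median of all genes was then 0.24. The gene cnbpb, for a zinc-finger protein that in other vertebrates binds ribosomal protein mRNAs, had 145.4, 127.2 and 139.8 CPM at 4 dpa, against 235.8, 264.8 and 254.1 CPM at 0 dpa (−0.85 ± 0.09, limma adjusted p = 7.6e-05). The mTOR inhibitor akt1s1 fell by 0.81 on the log2 scale (SE 0.09, limma adjusted p = 0.00014). The translation repressor eif4ebp1 rose by 0.36 ± 0.08 (limma adjusted p = 0.0065). The gene larp1b, related to the LARP1 protein that binds ribosomal protein mRNAs, rose by 0.43 ± 0.14 (limma adjusted p = 0.026), and over the alternatives its adjusted p ranged from 0.0025 to 0.082.

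**Figure D5:**
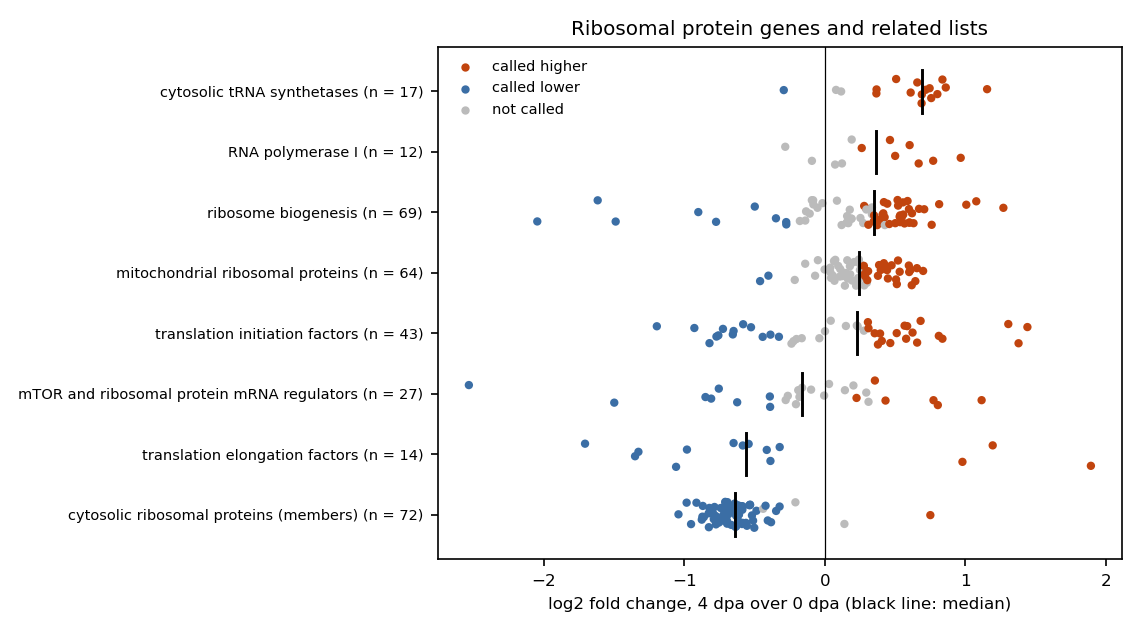
Log2 fold change, 4 dpa over 0 dpa, of each gene of the cytosolic ribosomal protein set (bottom) and of 7 related lists, coloured by call, with a black line at the median and a vertical scatter that carries no value. The ribosomal proteins lie in a narrow band around −0.64, while tRNA synthetases have a median of 0.69 and ribosome biogenesis genes one of 0.35.

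Markers of several cell types differed between the days as well. Over all genes, 31.2% were called lower and 31.0% higher. Of 12 markers of dividing cells, 11 were called higher, with a summed level of 930.6 to 1053 CPM at 4 dpa, against 410.6 to 453.2 CPM at 0 dpa. Of 7 osteoblast and fin ray markers, 6 were called higher, with a sum of 8240 to 9178 CPM at 4 dpa, against 225.4 to 316.5 CPM at 0 dpa. Of 10 epidermis markers, 5 were called lower and 2 higher. Their sums, mostly from krt5, were 32700 to 38300 CPM at 4 dpa and 50000 to 58100 CPM at 0 dpa. After quantile normalization 4 of these markers were lower and 3 higher. All 5 lymphocyte markers and all 5 Schwann cell markers were called lower. The lymphocyte sums were 40.5 to 68.2 CPM at 4 dpa and 112.5 to 128.0 CPM at 0 dpa, and the Schwann cell sums 77.9 to 85.5 CPM at 4 dpa and 200.7 to 220.5 CPM at 0 dpa.

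Of 9 myeloid markers, 5 were called lower and 1 higher, with sums of 281.7 to 367.5 CPM at 4 dpa and 488.8 to 754.2 CPM at 0 dpa. Of 7 pigment cell markers, 2 were called lower and 1 higher, with 43.8 to 56.0 CPM at 4 dpa and 55.7 to 70.4 CPM at 0 dpa. The share of pigment cell markers called lower, 28.6%, was near the 31.2% of all genes. Muscle and red blood cell markers summed to at most 16.6 CPM and 13.0 CPM in any library. No marker was at 0 in all libraries of a day. Scaled to total reads, 3 lymphocyte markers were called lower, 5 myeloid markers were lower and 2 higher, and 1 pigment cell marker was lower and 3 were higher. The part of these changes in the lower ribosomal protein mRNA was not tested.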

How the data were processed

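The authors deposited log2 values, log2(CPM + 1), for 16951 genes, with CPM taken over adjusted library sizes, 0.855 to 0.908 times the read total at 0 dpa and 1.08 to 1.10 times at 4 dpa. Whole reads came back from 100% of values, within 0.1 of a read. Per the labels, the processing notes of the submitters name Trimmomatic, RSEM, edgeR and the Zv9 assembly. The study used Ensembl version 76. The aligner and the use of strand in counting are not given in the sources used here. Names matched 13664 genes and are partly human-style, so genes of the same name are given with identifiers.

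Each library was shifted by its trimmed mean log ratio to the average library (30% of log ratios and 5% of levels trimmed at each end, shifts of −0.019 to 0.017), and 4 dpa was fitted against 0 dpa with limma 3.58.1 in R 4.3.3 (lmFit, eBayes with a mean-variance trend, no covariate, no filter). Benjamini-Hochberg adjustment covered all genes, with a threshold of 0.05. Fold changes of genes with few reads are understated on this scale. No label says that the libraries of a day came from separate tanks or days, so p-values measure the spread between these pools. The main fit was run on simulated data in which few genes changed, in equal number up and down. Such data do not test the scaling on which the calls depended. Python 3.11.15, NumPy 2.4.6, pandas 2.3.3 and Matplotlib 3.10.9 did the rest.

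The members and lists were chosen with earlier results of these data known. Of the set, the text names the 5 largest and 5 smallest signed fold changes among called genes, genes not called or called higher, copies, and rpsa, rplp0, rplp1, rplp2 and rps6. Of other lists it names every gene of those with 5 or fewer, and the 2 largest rises and falls among called genes of mean level 5 or more. Some genes that these rules take are counted but not reported by name here. Markers were not named by a rule: krt5 and and1 were chosen after their values were seen. Levels per coding length were planned, and are not analysed here for lack of lengths in the tables used. Alternatives were other scalings, a pseudocount of 0.1 in place of 1, a filter, limma-voom on the recovered reads with the adjusted library sizes, no trend, a replicate block, each library left out, and other memberships.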

Additional observations from a re-analysis of the deposited data

How the results depend on the processing

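Scaling moved the results most. Scaled to total reads, 2 genes of the set were called higher in place of 1 and the median log2 fold change was −0.36 in place of −0.64. With quantile normalization 31 were called lower in place of 68, all of them among the 68. A further 5 were called higher and the median was −0.17. Of all genes, 5333 were then called lower and 5062 higher. Of the named genes, the fold change then turned positive for RPL12 (0.18), RPLP1 (0.18), RPS12 (0.18), RPLP0 (0.25), RPL5 ENSDARG00000020197 (0.014), RACK1 (0.064) and rps20 (0.34), and rps20 also turned to 0.078 on total reads. Of 249 genes of mean level 9 or more, 78 were ribosomal protein genes of the set or of those the name match missed. Why the calls moved with the scaling was not tested. As a share of the adjusted library size, the set differed by −4.75 percentage points in place of −2.52. Without names ending in l or l1, 0 genes were called higher at an adjusted p under 0.05. With the 11 genes outside the name match, an alternative chosen after seeing the data, 79 were called lower. The added genes were mostly found through genes the study had selected on these libraries, so this is no independent check. Of 43 named genes, 29 kept both sign and call under every alternative that gave a value.

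Leaving out a library gave 66 to 69 genes called lower, a median of −0.68 to −0.61 and a share difference of −2.77 to −2.33 points. The difference of the log2 ratio of copies was −0.51 to −0.42 for RPL5, 0.91 to 1.01 for RPL22 and 1.41 to 1.54 for RPL7.

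With the replicate block, 70 genes were called lower, the 68 among them, 1 was called higher, and the median was −0.64. Over all genes the replicate numbers did not meet the bar for pairing, a correlation over 0.1 in every pair: deviations from the day means correlated at 0.155, −0.00438 and 0.152, and 3 of 6 libraries correlated best with their own number. Within the set, the median deviations had 1 sign within each number: −0.028 at 4 dpa and −0.042 at 0 dpa for replicate 1, 0.095 and 0.068 for replicate 2, and −0.064 and −0.022 for replicate 3. Whether a number marks a shared batch cannot be told from the labels.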

Other observations

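Within the initiation factors, the groups below were chosen after their values were seen. Of 13 genes of eIF3, the complex that binds the small subunit, 7 were called lower, 1 higher and 5 were not called, with a median log2 fold change of −0.52. The eIF4 group was taken by name, as eIF4A, eIF4B, eIF4E, eIF4G and eIF4H. Of its 14 genes, 10 were called higher, 3 lower and 1 was not called, with a median of 0.49. Of 9 genes of eIF2, which brings the initiator tRNA, and eIF2B, 4 were called higher, 2 lower and 3 were not called. Their median was 0.23. After scaling to total reads, 4 genes of eIF3 were higher and 7 lower, 11 of the eIF4 group were higher and 2 lower, and 6 of eIF2 and eIF2B were higher and 1 lower. Over all 16951 genes, 31.0% were called higher and 31.2% lower in the main fit. On total reads 7518 of them were higher and 3595 lower. No test compared the eIF groups.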
